A study of Mus musculus with 12 samples.

Results

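The S100 and annexin genes described here are S100a4, S100a6, S100a10, S100a11 and S100a13 and Anxa2, Anxa4, Anxa5 and Anxa6, measured in mouse splenic follicular B cells. They were taken as every noncontrol probe whose RefSeq accession maps to 1 of these symbols, which gave 10 probes for the 9 genes, of 22744 genes tested in all. S100a4 had 2 probes and each other gene 1, and all 10 probes were well above background on all 12 arrays, so that all 9 genes entered the test. The 9 genes were chosen by their values on these same arrays, in comparisons of genotype and of time, so their differences are a description, no p-value is given for them and nothing is supported with their counts.

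RNA came from follicular B cells of the spleens of male C57BL/6J mice, either without Bach2 (Bach2-/-) or wild type (WT). The groups were Bach2-/- 24 h, WT 24 h, Bach2-/- 0 h and WT 0 h, with 3 arrays each. The cells of the 24 h groups had been cultured for 24 h with 10 µg/mL of an anti-IgM Fab' fragment, which engages the B cell receptor (BCR), while the 0 h groups were taken before it. A culture without anti-IgM is not among the 12 arrays, so that the stimulus and the time in culture cannot be told apart. The series was set up to ask why Bach2-/- follicular B cells proliferate poorly on BCR signaling. How the Bach2 allele was made, and whether a mouse or several gave each sample, the sources used here do not say. The p-values therefore cover the variation among these 12 samples, part or all of which may be technical.

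S100 proteins are small calcium-binding proteins of the EF-hand type that form dimers, change shape when calcium enters the cell and then bind other proteins. Annexins bind phospholipid membranes in a calcium-dependent way and take part in membrane repair, vesicle traffic and the organisation of the cortex. The families meet in pairs, best known of S100a10 with Anxa2 at the plasma membrane and of S100a11 with Anxa1. BCR signaling raises cytosolic calcium, the signal that both families read. Bach2 is a transcriptional repressor of B cells that pairs with small MAF proteins and binds DNA elements made of an AP-1-like core next to letters read by MAF.

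The stretches of 250 bases before the annotated start of the 4 genes with the largest genotype difference at either time (0.87 for S100a11, with Anxa4 next at 0.86) are shown because Bach2 acts through DNA elements of this kind. They come from RefSeq, build GRCm38.p6, 5′ to 3′ on the strand of the gene. Capitals mark an AP-1 core (TGANTCA, where N is any base), the MAF letters (TGCTGA), which read TCAGCA when they lie on the other strand, and a TATA box (TATAAA), and each of the motifs was searched on both strands.
S100a6 promoter, chr3:90612644-90612893, + strand: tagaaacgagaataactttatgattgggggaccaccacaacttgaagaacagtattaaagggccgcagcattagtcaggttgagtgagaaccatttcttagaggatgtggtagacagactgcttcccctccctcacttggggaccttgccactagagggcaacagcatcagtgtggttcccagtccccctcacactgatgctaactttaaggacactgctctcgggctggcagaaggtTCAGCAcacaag
S100a4 promoter, chr3:90603520-90603769, + strand: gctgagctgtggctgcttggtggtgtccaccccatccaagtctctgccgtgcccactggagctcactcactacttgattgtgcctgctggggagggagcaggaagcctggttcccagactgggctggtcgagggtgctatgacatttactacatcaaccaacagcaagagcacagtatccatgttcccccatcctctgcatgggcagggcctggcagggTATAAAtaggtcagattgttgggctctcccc
Anxa2 promoter, chr9:69453433-69453682, + strand: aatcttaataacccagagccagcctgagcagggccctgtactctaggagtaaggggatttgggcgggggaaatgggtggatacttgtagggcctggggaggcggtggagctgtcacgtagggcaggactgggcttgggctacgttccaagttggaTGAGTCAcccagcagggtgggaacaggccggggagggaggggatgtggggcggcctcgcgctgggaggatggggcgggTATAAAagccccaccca
S100a11 promoter, chr3:93520246-93520495, + strand: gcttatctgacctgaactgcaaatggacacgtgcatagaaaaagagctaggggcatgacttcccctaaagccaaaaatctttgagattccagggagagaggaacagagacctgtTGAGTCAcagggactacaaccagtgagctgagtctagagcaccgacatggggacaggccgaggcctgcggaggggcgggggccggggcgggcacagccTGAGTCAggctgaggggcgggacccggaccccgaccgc
Of the 9 genes, 7 have an entry, and 32851 promoter windows of the same length were searched in all. TGANTCA lies in the windows of Anxa2, 95 bases before the start (position -95), and of S100a11, at -136 and -38, and in 6.75% of all windows. TGCTGA lies in the S100a6 window alone of the 7, at -12 on the other strand, against 16.1% of all windows. TATAAA lies in those of S100a4, at -31, and Anxa2, at -17, against 12.4% of all windows. A TGANTCA directly preceded by TGC, which joins the core to MAF letters, is in 0 of the 7 and in 0.353% of all windows. The windows of S100a4 and S100a6 hold 2 and 3 CpG, and those of Anxa2 and S100a11 hold 9 and 11, against a median of 6. These letter matches describe the windows and are not binding data.

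The 12 arrays differed in brightness and in slide. The 75th percentile of the processed signal was between 87.4, on Bach2-/- 24 h array 2, and 307, on Bach2-/- 24 h array 1, with 50.9% to 66.7% of spots well above background. Slide 2 held array 1 of each group and slide 1 arrays 2 and 3. Bach2-/- 0 h array 1 is labelled male but had no signal well above background from Ddx3y, Eif2s3y, Kdm5d or Uty, which are Y-linked, and together with the dim Bach2-/- 24 h array 2 it was left out in an alternative. Bach2 itself, by its brighter probe, was at -0.85 to 0.15 in Bach2-/- 24 h and 3.22 to 3.71 in WT 24 h, and at 0.96 to 1.33 in Bach2-/- 0 h and 3.40 to 3.99 in WT 0 h, on the log2 scale used throughout. The other Bach2 probe was well above background on 0 of 6 Bach2-/- and on 6 of 6 WT arrays. The sources used here do not say whether either probe falls inside the deleted stretch. Of the B cell markers listed, 7 of 7 were detected in all groups, with 0 of 7 passing between genotypes at either time (3 lower at 24 h and 0 at 0 h at unadjusted p under 0.05 in limma's fit), and their summed level (relative to the 75th percentile) was 236.1 to 405.2 in Bach2-/- 24 h, 443 to 842.9 in WT 24 h, 1108 to 1773 in Bach2-/- 0 h and 973.9 to 1331 in WT 0 h. The follicular markers Cr2 (-2.06 ± 0.27) and Icosl (-1.87 ± 0.24) were lower in Bach2-/- cells at 24 h, and 0 of 4 differed at 0 h (1 at unadjusted p under 0.05).

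Levels below are log2 signals relative to the 75th percentile of their array, given for arrays 1, 2 and 3 in turn. Levels of different probes are not set against each other. Differences are on the same log2 scale, with the standard error of limma's fit to all 12 arrays (n = 3 per group). A gene passed when its adjusted p (Benjamini-Hochberg, limma, 2-sided, over 22744 genes) was under 0.05, and groups are said to overlap where some array of 1 group reached into the range of the other. In bulk RNA, fewer cells of a type and less RNA per cell cannot be told apart.

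S100a6, or calcyclin, which binds the ubiquitin ligase adaptor Cacybp and its partner Sugt1, had the largest genotype differences of the 9. Bach2-/- cells had levels of 4.85, 4.32 and 3.85 at 24 h and 8.68, 7.50 and 7.65 at 0 h. WT cells had -0.71, -0.87 and -1.47 at 24 h and 3.27, 2.48 and 2.08 at 0 h. All 4 groups were apart from each other, in the order Bach2-/- 0 h, Bach2-/- 24 h, WT 0 h and WT 24 h, so that Bach2-/- cells after the culture had more S100a6 signal than WT cells before it. Bach2-/- cells had 41.0-fold more at 24 h (5.36 ± 0.42) and 40.4-fold more at 0 h (5.34 ± 0.42). It was lower after the 24 h in both genotypes, with changes of -3.60 ± 0.42 in Bach2-/- and -3.62 ± 0.42 in WT cells and a difference between the responses of 0.021 ± 0.59. The genotype difference at 24 h was 5.26 on slide 1 and 5.56 on slide 2, and at 0 h it was 5.30 on slide 1 and 5.41 on slide 2. Without both arrays that stand apart it was 5.37 at 24 h and 4.97 at 0 h.

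S100a4, which binds nonmuscle myosin IIA (its heavy chain is Myh9) and is tied to cell motility, was likewise higher in Bach2-/- cells at both times and lower after the 24 h in both genotypes. Its brighter probe read -0.89, 0.69 and -0.49 at 24 h and 4.41, 2.93 and 3.44 at 0 h in Bach2-/- cells. In WT cells it read -2.01, -3.07 and -3.29 at 24 h and 0.18, 0.051 and 0.097 at 0 h. Bach2-/- 0 h stood above all other groups and WT 24 h below, while Bach2-/- 24 h and WT 0 h overlapped. The genotype difference was 2.56 ± 0.48 at 24 h (5.89-fold) and 3.48 ± 0.48 at 0 h (11.1-fold). The response was -3.82 ± 0.48 in Bach2-/- and -2.90 ± 0.48 in WT cells, with a difference of -0.92 ± 0.68.

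The dimmer S100a4 probe gave the same signs, with smaller genotype differences and responses. It read -1.04, 0.39 and -0.85 in Bach2-/- 24 h and -2.39, -1.73 and -2.25 in WT 24 h, and 3.81, 2.38 and 2.84 in Bach2-/- 0 h and -0.094, -0.24 and -0.32 in WT 0 h. Its genotype difference was 1.63 at 24 h and 3.23 at 0 h, and its responses, -3.51 in Bach2-/- and -1.91 in WT cells, differed by -1.60, more than those of the brighter probe. By the brighter probe, the genotype difference at 24 h was 3.28 on slide 1 and 1.12 on slide 2, and the difference of responses was 0.17 on slide 1 and -3.10 on slide 2, of opposite signs. S100a4 no longer passed at 24 h with normexp background correction (1.26), array median scaling (2.34) or a fit of the 6 arrays at 24 h (2.56), nor once WT 24 h array 2 (2.42) or array 3 (2.31) was left out. Its processed signal before scaling was 166, 141 and 129 in Bach2-/- 24 h and, in WT 24 h, 51.1, 20.8 and 20.1 in arrays 1, 2 and 3. Without both arrays that stand apart, the difference was 2.10 at 24 h and 3.07 at 0 h.

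S100a10 differs from the other S100 genes in that its protein does not need calcium to bind its partner Anxa2. Its level was 4.80, 4.40 and 4.51 in Bach2-/- 24 h and 5.77, 4.78 and 5.01 in WT 24 h, and 5.48, 4.999 and 5.14 in Bach2-/- 0 h and 5.14, 5.18 and 5.07 in WT 0 h. The genotypes overlapped at both times, and the differences were -0.62 ± 0.28 at 24 h and 0.076 ± 0.28 at 0 h. The response was -0.64 ± 0.28 in Bach2-/- cells, whose arrays did not overlap between times, and 0.056 ± 0.28 in WT cells. The range of its group means, 0.64, is the smallest of the 9 genes.

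S100a11, a partner of Anxa1, was at 4.11, 3.29 and 3.48 in Bach2-/- 24 h and 3.58, 2.79 and 2.75 in WT 24 h, and at 4.70, 3.71 and 3.94 in Bach2-/- 0 h and 3.55, 3.13 and 3.05 in WT 0 h. The genotypes were apart at 0 h (0.87 ± 0.35) and overlapped at 24 h (0.59 ± 0.35). S100a13, known for the export of Fgf1 and Il1a, which lack a signal peptide, was at 3.71, 3.88 and 3.45 in Bach2-/- 24 h and 3.37, 3.002 and 2.80 in WT 24 h, and at 4.53, 3.89 and 3.82 in Bach2-/- 0 h and 3.73, 3.79 and 3.19 in WT 0 h. Its genotypes were apart at both times (0.62 ± 0.28 at 24 h and 0.51 ± 0.28 at 0 h), though neither gene passed. Array 1, on slide 2, had the highest S100a11 value of all 4 groups, and the arrays of 1 group differed by up to 0.99, more than the genotype difference. The responses were -0.49 ± 0.35 (S100a11) and -0.40 ± 0.28 (S100a13) in Bach2-/- cells and -0.21 ± 0.35 and -0.51 ± 0.28 in WT cells.

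**Figure D1:**
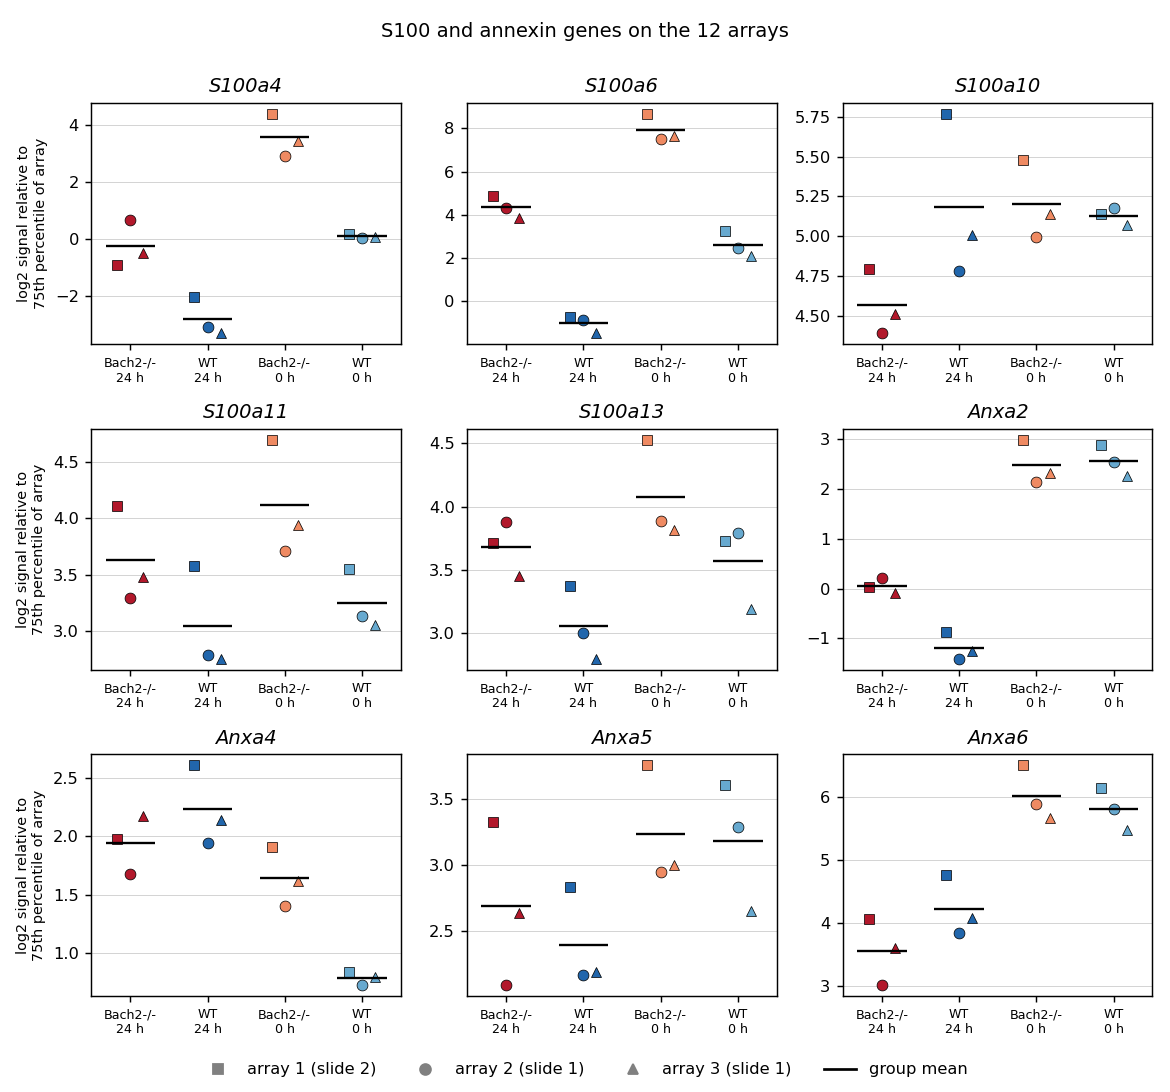
Log2 signal of each of the 9 genes relative to the 75th percentile of its array (y axis, a separate scale per panel) on the 12 arrays, by group (x axis). Each symbol is 1 array, with squares for slide 2 and circles and triangles for slide 1, and the black line is the group mean. S100a6 has 4 groups that do not overlap, from 7.50 to 8.68 in Bach2-/- 0 h down to -1.47 to -0.71 in WT 24 h, while the S100a10 means span 0.64.

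Anxa2, which forms a tetramer with S100a10 that binds plasminogen and its activators at the cell surface, differed between genotypes at 24 h and overlapped at 0 h. Bach2-/- cells had 0.036, 0.21 and -0.090 at 24 h and 2.98, 2.13 and 2.32 at 0 h. WT cells had -0.88, -1.41 and -1.26 at 24 h and 2.88, 2.54 and 2.27 at 0 h. Its genotypes overlapped at 0 h (-0.085 ± 0.28) and were apart at 24 h, when Bach2-/- cells had 2.35-fold more (1.24 ± 0.28). The response was -2.42 ± 0.28 in Bach2-/- cells (5.37-fold lower at 24 h) and -3.74 ± 0.28 in WT cells (13.4-fold lower).

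The Anxa2 difference at 24 h was near the threshold, and passed in 10 of 24 alternatives. It did not pass with normexp (0.83), array median scaling (1.02), no filter on dim probes or a fit of the 6 arrays at 24 h (1.24 each) or both arrays that stand apart left out (1.16), nor without any 1 of the 6 arrays compared (1.12 to 1.39). WT 0 h arrays 2 and 3 and Bach2-/- 0 h array 3 also ended the call when left out, with the value at 1.24, because they enter the estimate of the spread. Its sign was the same in all 24 alternatives, and on slides 1 and 2 the difference was 1.39 and 0.92.

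Anxa4, an annexin that aggregates membranes, was at 1.97, 1.67 and 2.17 in Bach2-/- 24 h and 2.61, 1.95 and 2.14 in WT 24 h, and at 1.91, 1.40 and 1.62 in Bach2-/- 0 h and 0.84, 0.73 and 0.79 in WT 0 h. WT 0 h lay below the 3 other groups, which overlapped in the order of their means. The genotype difference was -0.29 ± 0.25 at 24 h and 0.86 ± 0.25 at 0 h. The response was 0.30 ± 0.25 in Bach2-/- cells and 1.44 ± 0.25 in WT cells (2.72-fold higher at 24 h), and WT cells are the group in which Anxa4 passed.

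Anxa5, which binds phosphatidylserine and is used as a probe for dying cells, overlapped between genotypes at both times. It was at 3.33, 2.10 and 2.64 in Bach2-/- 24 h and 2.84, 2.17 and 2.20 in WT 24 h, and at 3.75, 2.95 and 2.9999 in Bach2-/- 0 h and 3.61, 3.29 and 2.66 in WT 0 h. The genotype differences, 0.29 ± 0.38 at 24 h and 0.049 ± 0.38 at 0 h, were smaller than their standard errors. The response was -0.55 ± 0.38 in Bach2-/- and -0.78 ± 0.38 in WT cells.

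Anxa6, the annexin known to bind the RAS regulator Rasa1 and the kinase Prkca, fell in both genotypes over the 24 h. Bach2-/- cells had 4.06, 3.03 and 3.60 at 24 h and 6.50, 5.89 and 5.66 at 0 h. WT cells had 4.76, 3.85 and 4.08 at 24 h and 6.14, 5.81 and 5.47 at 0 h. Its times were apart in both genotypes, and the genotypes overlapped at both times. The response was -2.45 ± 0.36 in Bach2-/- cells (5.48-fold lower at 24 h) and -1.57 ± 0.36 in WT cells (2.98-fold lower), with a difference of -0.88 ± 0.50 that did not pass. Without both arrays that stand apart the Bach2-/- response was -1.94. The WT response did not pass with array median scaling (-1.42).

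**Figure D2:**
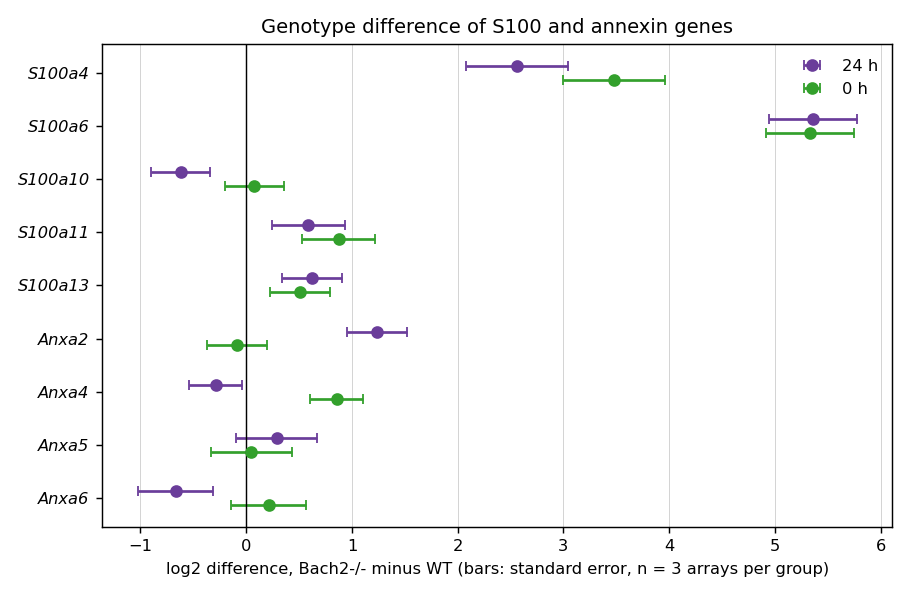
Difference between genotypes (x axis, log2, Bach2-/- minus WT) for each of the 9 genes (y axis) at 24 h and at 0 h. Points are limma estimates and bars standard errors, with 3 arrays per group. S100a6 and S100a4 lie between 2.56 and 5.36 at both times, and the others between -0.67 and 1.24.

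At 24 h, 3 of the 9 genes passed higher in Bach2-/- cells (S100a4, S100a6 and Anxa2) and 0 lower, where 2.15% of all genes passed higher and 0.831% lower. At 0 h, 2 passed higher (S100a4 and S100a6) and 0 lower, against 0.536% and 0.0923% of all genes. The median difference of the 9 genes was 0.59 at 24 h and 0.51 at 0 h, against -0.053 and 0.032 over all genes. The genotypes did not overlap for 4 genes at 24 h (S100a4, S100a6, S100a13 and Anxa2) and for 5 at 0 h (S100a4, S100a6, S100a11, S100a13 and Anxa4), all higher in Bach2-/- cells. Of all genes, 7.77% were apart upward and 7.64% downward at 24 h, and 7.2% upward at 0 h.

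Same-numbered arrays of the groups deviated together, so a fit with the replicate number as a block was also made. With that block, 5 of the 9 genes passed higher at 24 h (S100a11 and S100a13 joining, background 7.98%) and 2 lower (S100a10 and Anxa6, background 10.7%). At 0 h 4 passed higher (S100a11 and Anxa4 joining, background 2.78%). Since these values chose the genes, nothing is read from the counts.

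**Figure D3:**
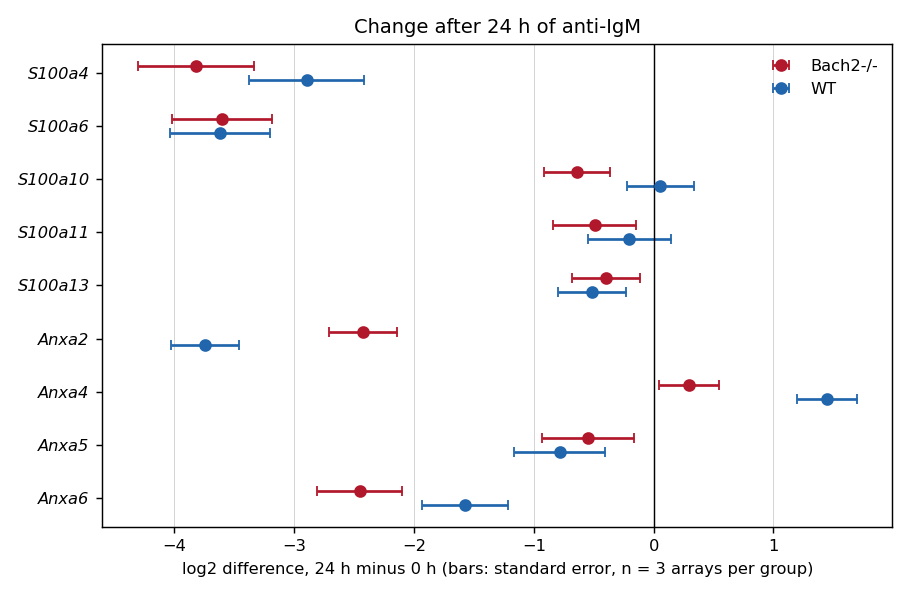
Change over 24 h of anti-IgM culture (x axis, log2, 24 h minus 0 h) for each of the 9 genes (y axis) in Bach2-/- and in WT cells. Points are limma estimates and bars standard errors, with 3 arrays per group. S100a4, S100a6, Anxa2 and Anxa6 lie below -1.5 in both genotypes, and Anxa4 lies at 1.44 in WT and 0.30 in Bach2-/- cells.

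Over the 24 h with anti-IgM, 4 of the 9 genes passed lower in Bach2-/- cells (S100a4, S100a6, Anxa2 and Anxa6), where 7.74% of all genes passed lower, and 0 passed higher, against 5.5%. In WT cells the same 4 passed lower, where 9.06% of all genes did, and Anxa4 passed higher, where 11.5% did. With the replicate block 6 genes passed lower in Bach2-/- cells (background 16.8%), with S100a10 and S100a11 joining, and 6 in WT cells (background 19.3%), with S100a13 and Anxa5 joining.

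Whether the responses differed between genotypes was tested as the response in Bach2-/- cells minus that in WT cells. In limma's fit 0 of the 9 genes passed (2 at unadjusted p under 0.05), where 0.317% of all genes did. With the replicate block, Anxa2 (1.32 ± 0.26) passed higher, where 1.72% of all genes did, and Anxa4 (-1.15 ± 0.23) lower, where 2.56% did. Without the block the standard errors were 0.40 and 0.35. Both genes were chosen on these values, so nothing is read from their passing with the block. The differences for the other 7 genes ran from -0.92 (S100a4) to 0.24 (Anxa5).

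Of the remaining S100 and annexin genes 19 were listed, without S100a2, which has no probe on the array, and S100a7l2, which was not tested. Of the 19, 11 passed the filter on dim probes, so a gene could enter through the group where it is high. At 0 h all 11 had a difference above 0, with a median of 0.99, and 2 passed higher, S100a1 and Anxa9 (3 at unadjusted p under 0.05). At 24 h 8 of 11 were above 0, with a median of 0.52, and Anxa1 passed higher. Over the 24 h, S100a1 passed higher in both genotypes and, in WT cells, Anxa9 passed higher and Anxa1 lower. With the replicate block 4, 2, 5 and 5 of the 11 passed in these 4 comparisons (0 h, 24 h, response in Bach2-/- and response in WT), against 2, 1, 1 and 3 without. Of all genes, 0.536% passed higher at 0 h and 2.15% at 24 h without the block, and 2.78% and 7.98% with it. Over the 24 h without the block, 5.5% passed higher in Bach2-/- cells, and 11.5% higher and 9.06% lower in WT cells. With it, 2 of the 11 passed lower in Bach2-/- cells, where 16.8% of all genes did, and 1 in WT cells, where 19.3% did. The others, 3 in Bach2-/- and 4 in WT cells, passed higher with the block. The share of all genes passing higher over the 24 h with the block was not tallied, so these counts have no background.

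Anxa1, an annexin with a role in the control of inflammation, was at 3.94, 3.40 and 2.74 in Bach2-/- 24 h and 1.63, 0.38 and 0.41 in WT 24 h, and at 4.20, 2.93 and 2.95 in Bach2-/- 0 h and 3.05, 2.21 and 1.87 in WT 0 h. It was higher in Bach2-/- cells at 24 h by 2.55 ± 0.49 (limma adjusted p = 0.0167), and at 0 h the difference was 0.99 ± 0.49 (adjusted p = 0.917 without and 0.0127 with the replicate block). Its response was -0.0020 ± 0.49 in Bach2-/- cells, and it fell in WT cells (-1.57 ± 0.49, adjusted p = 0.0431). The responses differed by 1.57 ± 0.70 (limma adjusted p = 0.683 without the block by replicate number, 0.0109 with it). The 24 h call was lost with array median scaling (2.33, adjusted p = 0.106) and without WT 24 h array 2 or 3 or Bach2-/- 24 h array 1 or 2 (2.26 to 2.53, limma adjusted p 0.0537 to 0.0824). The call of the WT response was lost in 12 of 24 alternatives, 8 of which leave out 1 array (any WT array but WT 24 h array 1, Bach2-/- 0 h array 2 or 3, or Bach2-/- 24 h array 2), with values of -1.82 to -1.23 and limma adjusted p of 0.0518 to 0.141.

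S100a1, best known from heart muscle, went the other way from S100a4 and S100a6 in time. It was at -0.075, -0.29 and -0.19 in Bach2-/- 24 h and -0.86, -0.98 and -1.63 in WT 24 h, and at -1.86, -2.60 and -2.51 in Bach2-/- 0 h and -3.90, -3.70 and -4.46 in WT 0 h, where 2 of 3 arrays were well above background. Its genotype difference was 0.97 ± 0.30 at 24 h (limma adjusted p = 0.154 without the block, 0.0142 with it) and 1.70 ± 0.30 at 0 h (adjusted p = 0.0288). The response was 2.14 ± 0.30 in Bach2-/- cells (adjusted p = 0.00058) and 2.87 ± 0.30 in WT cells (adjusted p = 8.87e-05). The 0 h call held in 9 of 23 alternatives and was lost without any 1 of the 6 compared arrays or Bach2-/- 24 h array 3 (1.47 to 1.86, adjusted p 0.0586 to 0.168) with normexp (0.47, adjusted p = 1) and with the mean of its probes (1.29, adjusted p = 0.211). Its other probe gave 0.82 at 24 h and 0.89 at 0 h.

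Anxa9 was at -0.87, -1.82 and -1.18 in Bach2-/- 24 h and -1.47, -2.12 and -2.09 in WT 24 h, and at -0.75, -1.91 and -1.45 in Bach2-/- 0 h and -3.21, -3.13 and -3.47 in WT 0 h, so that WT 0 h alone stood below, as for Anxa4. The difference was 0.60 ± 0.35 at 24 h and 1.90 ± 0.35 at 0 h (limma adjusted p = 0.0328), and the WT response was 1.38 ± 0.35 (adjusted p = 0.0162). The 0 h call held in 9 of 24 alternatives and was lost without any WT 0 h array, without Bach2-/- 0 h array 1 or 3, WT 24 h array 2 or 3 or Bach2-/- 24 h array 3 (1.59 to 1.97, adjusted p 0.0512 to 0.176). With normexp the 0 h difference was 0.77 (adjusted p = 0.321) and the WT response 0.57 (adjusted p = 0.0937). The WT response lost its call without WT 0 h array 3 (1.28, adjusted p = 0.0669) or WT 24 h array 1 (1.17, adjusted p = 0.0642) and with array median scaling (1.53, adjusted p = 0.0706).

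S100a8 and S100a9, whose products form calprotectin in neutrophils, varied between arrays of 1 group, and the WT 0 h arrays spanned more than the genotype difference. S100a8 was at 0.80, 3.36 and 3.48 in Bach2-/- 24 h and -2.67, 1.22 and -0.084 in WT 24 h, and at 2.79, 2.66 and 3.51 in Bach2-/- 0 h and 1.17, -1.76 and 2.70 in WT 0 h. Its difference was 3.06 ± 1.18 at 24 h and 2.29 ± 1.18 at 0 h, and that of S100a9 3.24 ± 1.15 and 2.14 ± 1.15, with limma adjusted p of 0.229 to 0.99. S100a16 split by slide, at -0.30 to 0.58 on slide 2 and 1.89 to 3.49 on slide 1 by its brighter probe. At 24 h and 0 h, S100a3 (-0.098 and 0.60), S100a5 (0.52 and 1.07), Anxa7 (0.43 and 0.48), Anxa8 (0.44 and 0.19) and Anxa11 (-0.21 and 0.12) did not pass. S100a5 passed at 0 h with the replicate block (adjusted p = 0.0331).

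Most S100 genes lie together on chromosome 3, so the neighbouring genes were read as well. Between the outermost S100 genes there and 5 genes to each side are 65 other protein-coding genes, of which 18 were tested. Their median genotype difference was -0.081 at 24 h (range -0.72 to 0.25) and 0.014 at 0 h (range -0.57 to 0.42), and 0 passed at either time in limma's fit. Over the 24 h, 1 of the 18 passed, Ilf2, which rose in WT cells (1.27, adjusted p = 0.00656), where 11.5% of all genes passed higher. S100a13, S100a16 and S100a3 lie between S100a1 and S100a4, and S100a5 between S100a4 and S100a6, with differences smaller than those of S100a4 and S100a6. Many of the 18 belong to the Lce, Sprr and Tdpoz families. Their levels are not given here, so how far above background these neighbours lay cannot be read from their differences. The differences of the neighbours against those of the S100 genes were not tested.

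**Figure D4:**
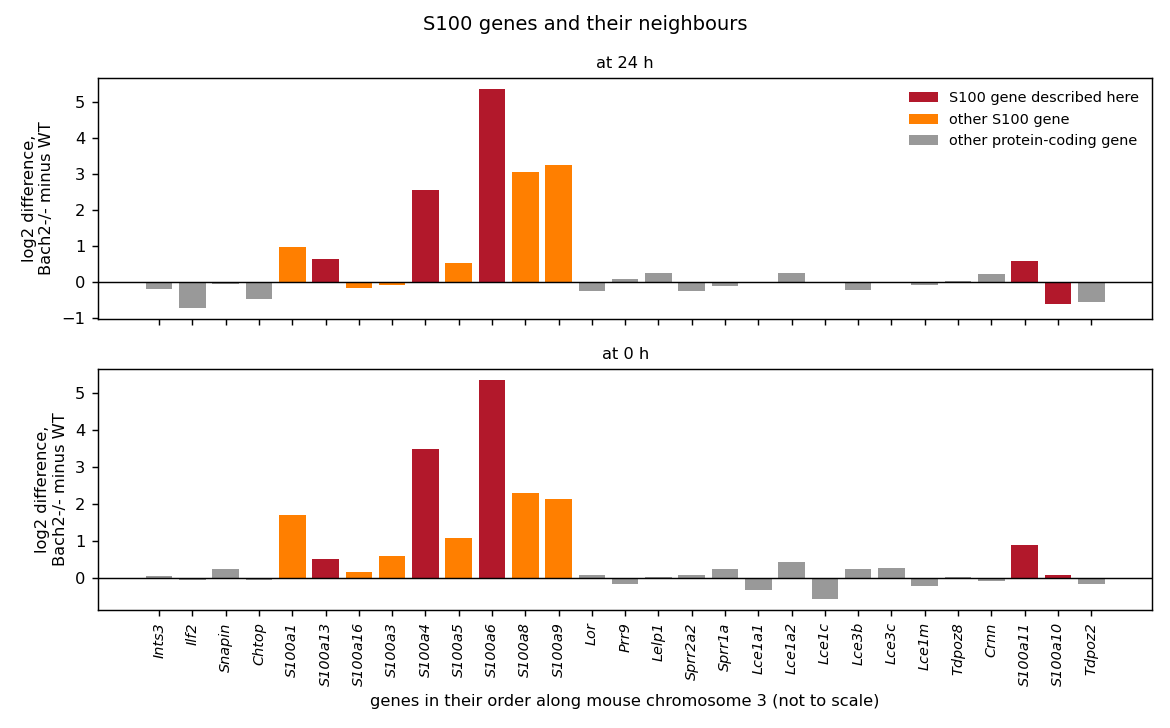
Genotype difference (y axis, log2, Bach2-/- minus WT) of the tested S100 genes and of the tested protein-coding genes around them, in their order along mouse chromosome 3 (x axis, not to scale), at 24 h (top) and 0 h (bottom). Bars are limma estimates from 3 arrays per group, without their errors. S100a6 stands at 5.36 and 5.34, and the 18 genes of other families lie between -0.72 and 0.42.

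Partners of these proteins were read from a list of 21 genes, 14 of them tested. At 0 h 0 passed (1 at unadjusted p under 0.05, Ahnak, which passed with the replicate block together with Plgrkt). Ahnak, the scaffold protein that binds S100a10 with Anxa2, was higher by 1.31 ± 0.26 at 0 h (adjusted p = 0.055, and 0.0127 with the block). Its dimmer probes gave 0.16, 2.14 and 1.21 at 0 h. At 24 h Plau and Fgf1 passed, both higher in Bach2-/- cells, where 2.15% of all genes passed higher. Both had entered the test through Bach2-/- 24 h alone, the group where they are high. The partners of S100a6 and S100a4, namely Cacybp, Sugt1 and Myh9, passed in no comparison without the block. With it, Cacybp and Sugt1 were higher in WT cells at 24 h than at 0 h. The differences were 0.82 for Cacybp (limma adjusted p = 0.0254 with the block) and 0.51 for Sugt1 (adjusted p = 0.0396 with the block). Their standard errors in the fit without the block were 0.52 and 0.41.

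Plau encodes urokinase, a plasminogen activator that acts at the cell surface where Anxa2 and S100a10 bind plasminogen. It was at 2.25, 1.69 and 1.90 in Bach2-/- 24 h and was not well above background on any array of WT 24 h, Bach2-/- 0 h or WT 0 h. Bach2-/- 24 h cells had at least 83.8-fold more than WT 24 h cells (limma adjusted p = 1.24e-06) and at least 110-fold more than Bach2-/- 0 h cells (adjusted p = 5.17e-08). These folds set the mean of the bright group against, per array, the higher of the dim probe's own signal and the lowest signal well above background. The responses differed by 6.06 ± 0.42 (limma adjusted p = 0.000119). That value is no bound, since the signal of the other groups was not well above background. Plau passed the filter on dim probes only through Bach2-/- 24 h, so its p-values describe a gene admitted by its high group.

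Fgf1, a growth factor released with S100a13, was at -0.95, 0.10 and -1.12 in Bach2-/- 24 h. It was not well above background on any array of WT 24 h, Bach2-/- 0 h or WT 0 h. Like Plau, Fgf1 passed the filter only through Bach2-/- 24 h, and its difference of responses is no bound. It was at least 13.02-fold higher in Bach2-/- 24 h than in WT 24 h cells (limma adjusted p = 0.00103) and at least 18.0-fold higher than in Bach2-/- 0 h cells (adjusted p = 5.66e-05). The responses differed by 4.65 ± 0.70 (adjusted p = 0.0174), a call lost with normexp (1.38, adjusted p = 0.506) and without array 2 or 3 of WT 0 h or WT 24 h (4.43 to 4.67, adjusted p 0.0515 to 0.0665). These values are of the brighter of 2 probes. The dimmer, which did not pass the filter, was at -4.05, -2.92 and -4.70 in Bach2-/- 24 h. In WT 24 h it was at -6.50, -5.10 and -6.01. It was well above background on 2 of the 3 Bach2-/- 24 h arrays and on 0 of the other groups.

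Several partners changed over the 24 h in both genotypes. Ahnak fell by 2.33 ± 0.26 in Bach2-/- cells (limma adjusted p = 0.000113) and by 1.71 ± 0.26 in WT cells (adjusted p = 0.00103). The urokinase receptor gene Plaur fell by 1.98 ± 0.44 and 2.40 ± 0.44 (adjusted p = 0.00981 and 0.00281), and Tlr4, a receptor for S100a8 and S100a9, by 1.86 ± 0.38 and 2.17 ± 0.38 (adjusted p = 0.00609 and 0.00214), in Bach2-/- and in WT cells. Prkca, a kinase bound by Anxa6, rose by 2.28 ± 0.39 in Bach2-/- and 2.79 ± 0.39 in WT cells (adjusted p = 0.00184 and 0.000524), while Anxa6 was lower. The plasminogen receptor gene Plgrkt passed in Bach2-/- cells (-1.53 ± 0.44, adjusted p = 0.0417), in 12 of 24 alternatives, but not in WT cells (-0.80 ± 0.44, adjusted p = 0.25), and the difference of its responses did not pass. Its call was lost without arrays 2 or 3 of WT 0 h, array 3 of WT 24 h, any Bach2-/- 0 h array or Bach2-/- 24 h array 2 or 3 (-1.73 to -1.17, adjusted p 0.0561 to 0.145), and without both arrays that stand apart (adjusted p = 0.226).

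Of 33 calcium-binding genes of other families (calmodulins, calpains, calcium stores and the like), 31 were tested. At 0 h 0 passed in limma's fit (2 at unadjusted p under 0.05) and the median difference was 0.12. At 24 h 1 passed, Gca, which encodes the EF-hand protein grancalcin and was higher in Bach2-/- cells by 2.32 ± 0.34 (adjusted p = 0.00267), with a median of -0.013 over the 31. Of all genes, 2.15% passed higher at 24 h and 0.536% at 0 h. Over the 24 h, 4 of the 31 passed higher and 4 lower in Bach2-/- cells, where 5.5% and 7.74% of all genes did. In WT cells 5 of the 31 passed higher and 3 lower, where 11.5% and 9.06% of all genes did. Among them Unc13d, needed for granule release, fell by 1.06 ± 0.20 in Bach2-/- and by 1.04 ± 0.20 in WT cells (adjusted p = 0.00323 and 0.00338), and Actn1, an actin crosslinker, rose by 1.57 ± 0.37 in each (adjusted p = 0.0137 and 0.0112). Calr, a calcium store protein, rose in Bach2-/- cells (1.42 ± 0.26, adjusted p = 0.00337), a call lost with array median scaling (1.27, adjusted p = 0.0945). Its WT response was 0.59 ± 0.26 (adjusted p = 0.148), and the responses were not shown to differ (0.83 ± 0.37, adjusted p = 0.685). The Actn1 call in Bach2-/- cells was lost without Bach2-/- 0 h array 1 (1.29, adjusted p = 0.055) or Bach2-/- 24 h array 3 (1.44, adjusted p = 0.0623), with normexp (0.79, adjusted p = 0.0526) and with array median scaling (1.43, adjusted p = 0.0815).

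Across the 12 arrays the 9 genes did not follow 1 pattern. S100a4 and S100a6 correlated most (Pearson r 0.94), S100a13 with both (0.87 each), Anxa2 with Anxa6 (0.84) and S100a11 with S100a13 (0.84), whereas Anxa2 and Anxa4 ran in opposite directions (-0.74) and S100a6 with S100a10 gave -0.036. The genes with the most similar pattern among 13055 genes were, for S100a6, Ly6a (0.989), Ly6c1 (0.988) and Fgl2 (0.985), and for S100a4, Tmem140 (0.976), Prkcq (0.972) and Arap2 (0.970). For Anxa2 they were Lta (0.995), Stac2 (0.994) and Pik3cg (0.994), and for S100a10 Zfp706 (0.956), Ralgapa2 (0.955) and Vapb (0.950). These are descriptions over 12 arrays of 4 groups that share slides, and carry no test.

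Markers of other cells were also read and are given with their levels. Of 9 neutrophil markers, S100a8 and S100a9 among them, 8 were tested, with a median genotype difference of 2.94 at 24 h and 2.55 at 0 h, and 0 passed at either time (5 and 4 at unadjusted p under 0.05, 3 and 3 with the replicate block). The summed level of the list was 148.1 to 322 in Bach2-/- 24 h and 77.62 to 230.5 in WT 24 h, and 156.9 to 295.3 in Bach2-/- 0 h and 254.5 to 328.6 in WT 0 h. Such sums are set mainly by the brightest probes. Of the 8, 7 had a difference above 0 at 24 h and 6 at 0 h. Csf3r, the brightest, was at 7.1 to 8.1 in Bach2-/- 24 h and 6.2 to 7.7 in WT 24 h. At 0 h it was at 6.9 to 8.1 in Bach2-/- and 7.9 to 8.2 in WT cells. Elane had the lowest difference at both times (-0.26 at 24 h and -0.73 at 0 h). It had no value on array 2 of either Bach2-/- group, while WT array 2 read 3.04 at 24 h and 3.435 at 0 h. On arrays 1 and 3 it was at 0.64 and 2.29 in Bach2-/- 24 h and -0.0046 and 2.14 in WT 24 h. At 0 h these arrays read -0.0046 and 2.245 in Bach2-/- and -0.023 and 2.13 in WT cells. The signs of Elane in the counts above therefore rest on unlike arrays. Ltf, a dimmer one, was at -1.64 to 0.49 in Bach2-/- 24 h and -5.15 to -1.69 in WT 24 h, and at -0.13 to 0.65 in Bach2-/- 0 h and -4.40 to -1.22 in WT 0 h. Mpo was not well above background on any WT array. Of 9 macrophage markers 5 were tested, and Cd68, C1qa and Fcgr1 were among those not well above background on all arrays of any group. The summed macrophage level was 7.18 to 18.3 in Bach2-/- 24 h and 8.95 to 12.3 in WT 24 h, and 8.13 to 12.1 in Bach2-/- 0 h and 4.16 to 15.1 in WT 0 h. Lyz2 passed at 24 h (2.81 ± 0.55, adjusted p = 0.0187).

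Of 8 erythroid and platelet markers 4 were tested, and 3 passed higher in Bach2-/- cells at 24 h (Hba-a1, Alas2 and Pf4) and 0 at 0 h (2 at unadjusted p under 0.05). Their summed level was 4.13 to 19.1 in Bach2-/- 24 h and 0.30 to 1.48 in WT 24 h, and 19.1 to 58.3 in Bach2-/- 0 h and 1.94 to 8.10 in WT 0 h. B-1 cell markers (6 of 6 tested) summed to 116.8 to 147.6 in Bach2-/- 24 h and 37.3 to 51.3 in WT 24 h, and to 42.3 to 60.0 in Bach2-/- 0 h and 14.1 to 16.6 in WT 0 h, with 4 of 6 higher at each time. Of 6 marginal zone markers 3 passed higher and 2 lower at 24 h, and 4 higher at 0 h, with sums of 78.0 to 94.0 in Bach2-/- 24 h and 92.4 to 134.7 in WT 24 h, and 89.6 to 121.3 in Bach2-/- 0 h and 68.4 to 80.0 in WT 0 h. T cell markers (8 of 9 tested) had 2 higher at 24 h (Cd8b1 and Thy1) and 0 at 0 h (0 at unadjusted p under 0.05), NK cell markers (4 of 6 tested) had 0 at either time (1 at 24 h and 2 at 0 h unadjusted), and of 4 dendritic cell markers tested Itgax was higher and Flt3 lower at 24 h. Of 6 plasma cell markers 5 were tested, with 2 higher at 24 h and 1 at 0 h, and with overlapping sums of 124.4 to 238 in Bach2-/- 24 h and 96.4 to 175.8 in WT 24 h, and of 75.5 to 164.6 in Bach2-/- 0 h and 59.8 to 90.2 in WT 0 h. The list's median difference was 0.94 at 24 h and 0.28 at 0 h, and Irf4 (-0.23 and -0.16), Sdc1 (0.27 and -0.88) and Xbp1 (0.94 and 0.28) did not pass at either time. The plasma cell regulator Prdm1 was higher in Bach2-/- cells by 4.94 ± 0.39 at 24 h (limma adjusted p = 4.81e-05) and 3.39 ± 0.39 at 0 h (adjusted p = 0.00191), and Jchain by 3.44 ± 0.43 at 24 h (adjusted p = 0.00101). Of all genes, 2.15% passed higher and 0.831% lower at 24 h, and 0.536% and 0.0923% at 0 h. The part of the cells that these markers stand for in the S100 and annexin values was not tested.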

How the data were processed

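Total RNA of 12 samples was labelled with Cy3 and hybridised to 1-colour Agilent arrays. Per the file headers, the authors quantified their scans in Feature Extraction (Agilent), version 10.7.3.1, and the deposited intensity used here is the processed signal, after background subtraction and detrending. The deposited table of the whole series holds log2 values whose scale and centring no header states. Set against the scanner files, they equal log2 of the processed signal less its array's 75th percentile, centred on each probe's median (r 0.998929 to 0.999929, column medians -0.27 to 0.50), and served as a check.

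Spots flagged as outliers were left out, spots of a probe averaged, and the signal divided by its array's 75th percentile over noncontrol probes, floored at 0.01 and put on the log2 scale. Probes well above background on all 3 arrays of a group were kept (30735 of 55681), and a gene was read from its probe of highest mean, which left 22744 genes. RefSeq accessions named 26413 probes (table of GRCm38.p6), and 29268 kept the file's names. limma 3.58.1 (lmFit and eBayes, R 4.3.3) was fitted to the 12 arrays with Benjamini-Hochberg adjustment over all genes and a threshold of 0.05, and was tested on simulated data. With 3 arrays against 3, an exact permutation test cannot go below 0.1, and precision is set by how few arrays there are. The normexp alternative used median spot signals, since mean signals are not among the columns.

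Same-numbered arrays deviated together (18 pairs, r 0.47 to 0.89), and numbers follow slides: array 1 lay on slide 2, arrays 2 and 3 on slide 1. Arrays of unlike number on slide 1 gave 0.25 to 0.64. The 9 genes and all lists were chosen with earlier results of these data known. Genes named were the 9, the other S100 and annexin genes, partners, and at most 6 other calcium-binding genes a comparison by size of change.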

Additional observations from a re-analysis of the deposited data

Results flagged for a closer look

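The change over 24 h with anti-IgM was tested for a difference between genotypes, given as the Bach2-/- response minus the WT response, and 5 genes are listed for it, 2 of which passed without the replicate block. Plau (6.06 ± 0.42, limma adjusted p = 0.000119) and Fgf1 (4.65 ± 0.70, adjusted p = 0.0174) passed in that fit. Both were well above background in Bach2-/- 24 h alone, so that these values are no bound. Anxa1 (1.57, adjusted p = 0.0109) passed with the replicate block and not without it (adjusted p = 0.683). Anxa2 (1.32) and Anxa4 (-1.15), past the threshold with the block alone, belong to the 9 genes chosen on these values, so their passing supports nothing. The cause of these differences was not tested.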

How the results depend on the processing

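Results were recomputed under 12 alternatives and with each of the 12 arrays left out, and no called value changed its sign. Array median scaling moved the median of all genes by -0.22 at 24 h, 0.086 at 0 h, -0.15 in the Bach2-/- response, 0.16 in the WT response and -0.30 in the difference of responses. The pairing by replicate number and the block by slide moved most counts. Of the 9 genes, 4 passed at 0 h with either block (2 without), 7 at 24 h with the replicate block and 6 with the slide block (3 without), and 2 in the difference of responses with either (0 without). At 24 h, 1 of the 9 passed with normexp, array median scaling or only the groups compared. Calls over all genes rose with the replicate block too. At 0 h 2.78% passed higher with it (0.536% without). At 24 h 7.98% passed higher and 10.7% lower with it (2.15% and 0.831% without). In the difference of responses 1.72% passed higher and 2.56% lower with it (0.317% in either direction without). The shares with the slide block were not tallied, and nothing is read from these counts.

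Of the other S100 and annexin genes, the count at 0 h (2) was 4 with either block, 1 with quantile normalization, the mean of probes or the filter on all arrays, and 0 with normexp, array median scaling, no filter, only the groups compared, slide 1 alone or both arrays that stand apart left out. At 24 h (1) it was 2 with either block and 0 with array median scaling. In the Bach2-/- response (1) it was 5 with either block, 3 with quantile normalization, 2 on slide 1 alone and 0 with the filter on all arrays. In the WT response (3) it was 5 with either block and 1 with normexp or array median scaling, and in the difference (0) it was 1 with either block.

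Of the partners, 2 passed at 0 h with either block (0 without). With the filter on all arrays, which drops Plau and Fgf1, 0 passed at 24 h and 0 in the difference (2 each), and normexp left 1 in the difference. The Bach2-/- response gave 4 without both arrays that stand apart (7), where Plaur (-1.31, limma adjusted p = 0.0712), Tlr4 (-1.32, adjusted p = 0.0528) and Plgrkt (adjusted p = 0.226) were lost. The WT response gave 11 with either block and 8 with quantile normalization (5). Of the other calcium-binding genes, the count at 0 h (0) was 2 with either block and 1 with quantile normalization or the mean of probes, and at 24 h (1) it was 5 with the replicate block, 4 with the slide block and 3 with quantile normalization. The Bach2-/- response (8) gave 18 with either block, 16 with quantile normalization, 5 with no filter or normexp, 4 with only the groups compared and 2 with array median scaling. The WT response (8) gave 16 with either block, 14 with quantile normalization, 5 with no filter and 1 with array median scaling. The cause of these moves was not tested.

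With 1 array left out, and in the order 0 h, 24 h, Bach2-/- response, WT response and difference, the 9 genes gave 2 to 2, 1 to 3, 4 to 4, 5 to 5 and 0 to 0. At 24 h the 1 came without WT 24 h array 2 or 3. The other S100 and annexin genes gave 0 to 2, 0 to 1, 1 to 1, 1 to 3 and 0 to 0, the partners 0 to 1, 2 to 2, 6 to 7, 5 to 5 and 1 to 2, and the other calcium-binding genes 0 to 1, 1 to 1, 4 to 12, 4 to 9 and 0 to 0. Signal over background limits S100a1, Plau and Fgf1, which are dim in at least 1 group.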
